A study of Mus musculus with 21 samples.

Results

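The 52 genes described here carry the symbols of cytosolic ribosomal proteins or of like forms, and they were measured in fat of male C57BL/6J mice on 21 arrays. Whether each of them makes a protein of the ribosome was not tested. The tissue was the epididymal pad, a visceral depot that lies next to the testis. They were chosen by symbol: a probe with 1 gene symbol, of the Rpl or Rps form with a number, or Rplp0 or Rpsa, and the brightest such probe standing for each gene. This gave 35 large-subunit and 17 small-subunit genes out of 16248 genes measured. They include 7 genes named as "like" forms (Rpl3l, Rpl6l, Rpl7l1, Rpl10l, Rpl22l1, Rpl32l and Rpl39l), some of which take the place of an ordinary ribosomal protein in particular tissues. The table was held in part, and 33 protein-coding genes whose symbols follow the same rule are not among the members. Rplp1, Rplp2, Rpl13a, Rps27a and Rps4x are examples. Some of the 33, such as Rpl12, Rpl23 and Rpl31, were left out because their probes carry several symbols. Of these 33, 23 lie on chromosomes 6 to 9 or X.

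The mice were 4 weeks old on arrival, spent 1 week on chow and then ate their diets for 12 weeks, housed singly. There were 3 arrays in each of 7 groups. The L_FMG and H_FMG groups ate a high-fat diet with fermented mixed grain at 0.3% and 0.9% by weight, the SMG group the high-fat diet with 0.3% steamed grain, and the BC group the high-fat diet with 0.3% Bacillus coagulans, a probiotic bacterium that forms spores. The RMG group is also labelled with the high-fat diet, but its supplement and dose are not described in the sources used here. The HFD group ate the high-fat diet alone, with 40% of its energy from fat, and the ND group a normal diet with 10%. Each array is named by its group and its title's number, which was read as that of the mouse, so p-values measure the spread between such arrays. Every comparison with HFD uses the same 3 HFD arrays.

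A ribosome is built from ribosomal RNA and a set of proteins, nearly all present once in each particle, and cells make the proteins in step with one another and degrade those left over. Most of their messenger RNAs begin with a C followed by an unbroken stretch of C and U, the terminal oligopyrimidine or TOP tract, through which the kinase mTOR sets how much of the messenger RNA is translated. The arrays read the amount of messenger RNA and not its translation. Many ribosomal protein genes have also left processed pseudogenes, near-identical intronless copies, throughout the mouse genome, and a short probe can read the parent and its copies alike.

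At the annotated starts, runs of C and T were of uneven length among the genes printed below. Whether such a run is a TOP tract was not tested. RefSeq windows of 30 bases, 15 each side of the annotated start on build GRCm38.p6, were available for 40 of the 52 members. Rpl6l and Rpl29, the members called in HFD against ND below, had no window. Each is written from 5′ to 3′ along the gene, and capitals mark a run of at least 6 letters that are all C or T and that comes within 5 bases of the start. The run is 17 letters long in Rpl15, 11 in Rpl28, 10 in both Rps6 and Rpl22l1 and 6 in Rpl6, and Rpl7l1 has none.
Rpl15: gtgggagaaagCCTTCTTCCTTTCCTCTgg
Rpl28: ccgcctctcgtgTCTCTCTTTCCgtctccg
Rps6: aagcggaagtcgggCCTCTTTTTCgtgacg
Rpl6: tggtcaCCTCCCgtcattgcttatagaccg
Rpl22l1: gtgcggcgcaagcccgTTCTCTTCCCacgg
Rpl7l1: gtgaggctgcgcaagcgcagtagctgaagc
These windows lie at chr14:18270972-18271001 on the minus strand for Rpl15, chr7:4792950-4792979 on the plus strand for Rpl28, chr4:86857353-86857382 on the minus strand for Rps6, chr5:121204486-121204515 on the plus strand for Rpl6, chr3:28805493-28805522 on the plus strand for Rpl22l1 and chr17:46782642-46782671 on the minus strand for Rpl7l1.

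Of the 40 members with a window, 19 (47.5%) had such a run at an annotated start, against 23.1% of 17491 protein-coding genes. The letters CCGGAAG, searched on both strands of the 300 bases from 250 before to 50 after the start, were found in 18 of the 40 (45%), against 12.9% of the protein-coding genes. CCGGAAG is a sequence that some transcription factors of the ETS family bind, and a match here is only a description of the letters. Annotated starts can be off by some bases, so a missing run says only that the letters are not in this window.

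The first thing to know about the levels of these genes is which copy a probe reads. Probes run in genome order in the table, so a probe can be placed by its neighbours. By this measure 36 of the 52 probes lie at their own gene and 16 lie elsewhere in the genome, at sites where a processed copy could be. Among all single-symbol probes placed this way only 1.00% lie elsewhere. The 16 are those of Rpl9, Rpl13, Rpl15, Rpl21, Rpl23a, Rpl27, Rpl28, Rpl29, Rpl35, Rpl41, Rps3a1, Rps6, Rps18, Rps19, Rps28 and Rpsa, and for these the level may be that of the parent, of a copy or of both. The 2 probes of Rpl23a held the same values on every array, and so did the 2 of Rps19. The probes elsewhere were bright, with a median level of 8.97 log2 units and a median within-group SD of 0.11. The probes at the gene had a median level of 4.58 and a median SD of 0.20, against 4.73 and 0.18 over all genes. Brightness also depends on the probe, so these levels do not order the genes by abundance.

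HFD against ND asks what differed with the high-fat diet when no supplement was given. By limma with Benjamini-Hochberg adjustment over all genes, 2 of the 52 members passed an adjusted p of 0.05, Rpl6l and Rpl29, both higher in HFD, and 0 were lower. Over all 16248 genes 8.63% passed, 6.54% higher and 2.09% lower, so the share of members called was no larger than that of genes at large. At an unadjusted p under 0.05 the count was 11 members higher and 2 lower, 13 of 52, where 25.3% of all genes lay under that value. The sizes were small: the 52 log2 differences ran from -0.89 for Rps15 to +0.52 for Rpl7l1.

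Rpl6l, annotated on chromosome 10 as a gene like Rpl6, had the clearest difference. Its levels were 8.41, 8.52 and 8.46 log2 units in HFD, against 7.98, 8.11 and 7.78 in ND. The groups did not overlap. The log2 change was 0.50 ± 0.11 (SE, n = 3 against 3, limma adjusted p = 0.00841), the only member call that held when any single array but HFD 6 was left out. Without HFD 6 the change was 0.47 with an adjusted p of 0.0546, and no member passed.

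Rpl29, a large-subunit protein, was read by a probe elsewhere in the genome and had levels of 10.88, 10.98 and 10.95 in HFD, against 10.73, 10.71 and 10.22 in ND. All HFD arrays lay above all ND arrays, and ND 9 lay far below the other ND arrays. The log2 change was 0.38 ± 0.12 (limma adjusted p = 0.0480). The call was lost when ND 9 (change 0.21, adjusted p = 0.162), HFD 4 (0.0798), HFD 6 (0.154) or HFD 7 (0.121) was left out. It was also lost with only HFD and ND in the fit (adjusted p = 0.215) and with the mean of a gene's probes (adjusted p = 0.0509).

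Just beyond the threshold stood Rpl10a and Rpl6, large-subunit genes with the probe at the gene. Rpl10a had levels of 8.34, 8.44 and 8.31 in HFD, against 7.97, 8.05 and 7.92 in ND, a difference of 0.38 ± 0.12 (limma adjusted p = 0.0507). Rpl6 had 3.97, 4.19 and 3.90 in HFD, against 3.79, 3.57 and 3.57 in ND, a difference of 0.38 ± 0.12 (limma adjusted p = 0.0513). In both the HFD arrays lay wholly above the ND arrays, and the parent Rpl6 and its like form Rpl6l had differences of one sign. The probes of such closely related genes may share sequence, which was not tested.

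Rpl7l1, a relative of Rpl7 whose yeast counterpart acts in the assembly of the large subunit, had the largest positive difference, with levels of 4.74, 4.80 and 4.68 in HFD, against 4.24, 4.15 and 4.29 in ND (difference 0.52 ± 0.17, limma adjusted p = 0.0633). Its groups did not overlap, and the spread within each group was small. Rpl7 itself had 3.79, 3.83 and 3.76 in HFD, against 3.85, 3.56 and 3.54 in ND, and its groups overlapped. Rpl28, a large-subunit gene whose start carries a long run of C and T, had 10.90, 10.95 and 10.93 in HFD, against 10.69, 10.70 and 10.67 in ND (difference 0.24 ± 0.08, limma adjusted p = 0.0750). Rpl15, also with a long run, differed by 0.38 ± 0.13 (limma adjusted p = 0.0712), and Rps28 by 0.42 ± 0.15 (limma adjusted p = 0.0889). Rpl28, Rpl15 and Rps28 were all read by probes elsewhere.

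Rps15, a protein of the small subunit's head, had the largest negative difference. Its levels were 2.71, 2.81 and 2.25 in HFD, against 3.21, 3.04 and 4.20 in ND (difference -0.89 ± 0.33, limma adjusted p = 0.0893). The groups did not overlap, the probe is among the dimmest of the members, and without ND 9 the difference was -0.53. Rpl22 and Rpl22l1 are a pair in which, in mice, the Rpl22 protein is known to hold back Rpl22l1. Rpl22l1 had 3.29, 3.14 and 3.03 in HFD, against 3.34, 3.54 and 3.63 in ND, wholly lower but not past the threshold (difference -0.35 ± 0.13, limma adjusted p = 0.0895). Rpl22 had 4.23, 4.39 and 4.21 in HFD, against 3.94, 4.08 and 4.25 in ND, and its groups overlapped (difference 0.18 ± 0.11, limma adjusted p = 0.303).

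**Figure D1:**
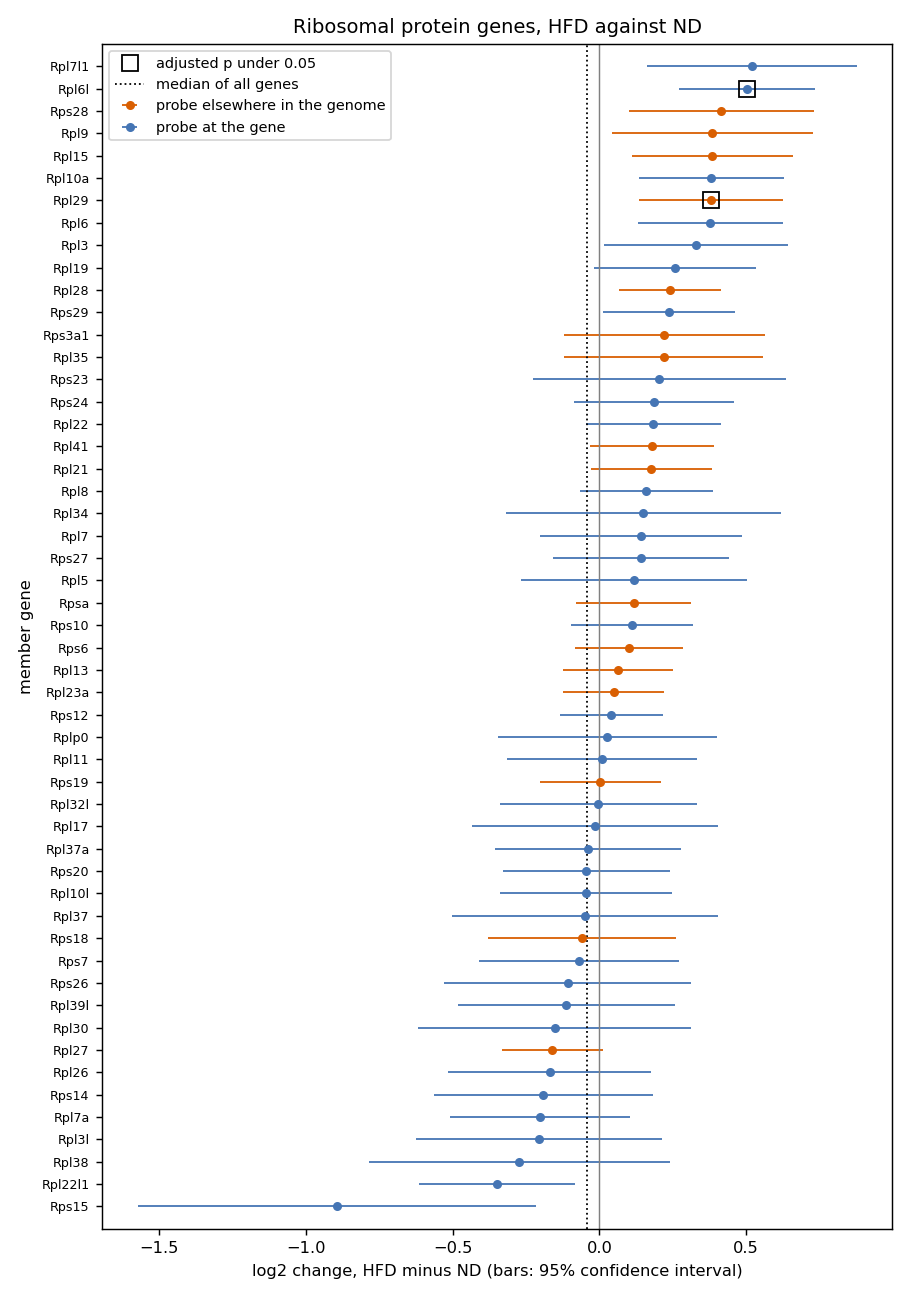
Fitted log2 difference, HFD minus ND, of each of the 52 ribosomal protein genes (points) with its 95% confidence interval (bars), ordered by size, orange where the probe lies elsewhere in the genome and blue where it lies at the gene. The boxed points are the 2 genes past an adjusted p of 0.05, Rpl6l and Rpl29, and the dotted line is the median of all genes at -0.041; most intervals cross 0, and Rps15 stands alone at -0.89.

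The genes with known roles beyond the ribosome's shell of proteins had small differences between HFD and ND, none past the threshold. Rps6, the substrate of S6 kinase downstream of mTOR, had levels of 10.72, 10.80 and 10.72 in HFD, against 10.66, 10.67 and 10.60 in ND, a difference of 0.10 with a 95% confidence interval from -0.08 to 0.28. Rpsa, also known as a laminin receptor, lay between 8.99 and 9.01 in HFD, against 8.88 to 8.91 in ND (difference 0.12, interval -0.08 to 0.31). Both were slightly but wholly higher in HFD, and neither passed. Rps6 and Rpsa were read by probes elsewhere in the genome, so these levels may be those of a copy. Rplp0, the base of the ribosomal stalk and a common reference gene in quantitative PCR, had a difference of 0.03 (interval -0.35 to 0.40). Its probe, at the gene, averaged only 5.03 log2 units over all arrays, where the median over all genes was 4.73. How well such a probe reads its messenger RNA was not tested.

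Rpl5 and Rpl11, which with 5S ribosomal RNA can bind Mdm2 and so stabilise p53, had differences of 0.12 (interval -0.27 to 0.50) and 0.01 (interval -0.31 to 0.33). Rps14 and Rpl26, the second of which can bind the p53 messenger RNA, had differences of -0.19 and -0.17, and their intervals crossed 0. The probes of Rpl5, Rpl11, Rps14 and Rpl26 averaged 5.26, 3.79, 4.45 and 4.85 log2 units, so the same limit holds for them as for Rplp0. Rpl3, which helps form the site of peptide bond formation, had a difference of 0.33 ± 0.15 (limma adjusted p = 0.175), while Rpl3l, its form in heart and skeletal muscle, had -0.21 (interval -0.62 to 0.21). Rpl10l and Rpl39l, forms known from the testis, had -0.046 and -0.11, and the probe of Rpl10l averaged 2.57 log2 units in HFD and 2.62 in ND.

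As a group the members lay slightly above the other genes. In HFD against ND 33 of 52 differences were positive, where 44.1% of all genes were positive, and the median was 0.11, where it was -0.041 over all genes. The HFD arrays lay wholly above the ND arrays for 12 members (15.7% of all genes did) and wholly below for 3 (13.0% of all genes did). The same median also depends on level. Over the 923 genes with a mean level above 8 log2 units the median was 0.15 with 69.2% positive and 24.3% called, and the 15 members at that level had a median of 0.18 with 14 positive and 2 called. For levels from 5 to 8 the median was 0.10 over all genes and 0.14 over 13 members, and for levels of 5 or less it was -0.13 over all genes and -0.045 over 24 members. These levels were set after the values were seen, and the members' part beyond level was not tested. The gap to all genes depended on the processing: after quantile normalization the median was 0.076 for the members and -0.00084 for all genes, and with dim genes left out it was 0.15 for the 29 members kept and 0.096 for all genes kept. Centring each array on its median, which shifts every gene by the same amount, moved the medians to 0.21 for the members and 0.064 for all genes. The median was 0.12 for the large-subunit members and 0.10 for the small-subunit members.

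Members read by probes elsewhere had a median difference of 0.18, with 14 of 16 positive, and members read at the gene 0.019, with 19 of 36 positive. The mean level over the 16 was 8.69, 8.74 and 8.70 on the HFD arrays, against 8.53, 8.58 and 8.52 on the ND arrays, without overlap. Over the 36 it was 4.86, 4.94 and 4.78 on the HFD arrays, against 4.84, 4.79 and 4.87 on the ND arrays, with overlap. This split was made after the values were seen, and the classes also differ in level. For 9 genes single-symbol probes lie in both places, and for 4 of them the signs were opposite. Rpl41 had 3 probes elsewhere with differences of 0.18, 0.48 and 0.52 and 1 at the gene with -0.25. Rps28 had 0.42 elsewhere and -0.25 at the gene, Rpl9 had 0.39 elsewhere and -0.21 at the gene, and Rps3a1 had 0.22 elsewhere and -0.094 at the gene. The 4 differences at the gene had SEs of 0.15 to 0.20 and unadjusted p of 0.14 to 0.53 in limma. In each of the 4, ND 9 was the highest ND array. Rpl41 at the gene read 4.12, 4.18 and 5.04 in ND, and Rpl9 at the gene 2.97, 3.25 and 3.95. The opposite signs are thus not established. Of these probes, in a fit of every single-symbol probe (8.26% called over all probes), 1 of Rpl41 passed, the one at 0.48 (limma adjusted p = 0.0239). A further 33 probes carry several symbols with a member-type one among them, and 2 of these passed in a limma fit of every complete probe, where 6.16% of probes did. The probes at the gene were dim, from 2.92 for Rps3a1 to 4.39 for Rpl41.

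Members with a run of C and T at the start had a median difference of 0.14 (19 genes, from -0.35 to 0.38), and those without one 0.027 (21 genes, from -0.89 to 0.52). The windows are those of the named genes, while some members of both classes were read by probes elsewhere, among them Rpl15, Rpl28 and Rps28. The range without a run was the wider and held the whole of the other. Of the genes printed above, Rpl7l1 was the highest of those without a run and Rpl22l1 the lowest of those with one. Fau, which encodes a ribosomal protein fused to a ubiquitin-like one and falls outside the symbol rule, averaged 9.53 ± 0.047 in HFD and 9.23 ± 0.086 in ND (SD, n = 3 each). Its difference was 0.30 ± 0.10 (limma adjusted p = 0.0760).

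Markers of some cell types differed between the same arrays, and those of others did not pass. Of 13 macrophage markers 12 were higher in HFD, and their mean level ran from 9.13 to 9.31 in HFD and from 7.90 to 8.42 in ND. Of 8 lipid-associated macrophage markers 7 were higher, 5 of 10 fibroblast and progenitor markers were higher, and 4 of 10 adipocyte markers were lower (means from 9.34 to 9.63 in HFD and from 9.62 to 10.1 in ND). The median differences of these lists were 1.05, 1.10, 0.65 and -0.41. Of 9 endothelial markers 2 passed as lower. All 9 had negative differences (median -0.40), 8 of them at an unadjusted p under 0.05 in limma. Of 8 mast cell markers 2 were higher (median difference 0.38). Of 3 T cell markers 1, Il7r, was higher, by 2.59, while the median difference was -0.10. A T cell marker was also lower at an unadjusted p under 0.05 in limma, with its HFD arrays wholly below those of ND. Of 13 epididymis epithelium markers 1 was lower, a share near the 8.63% of all genes called. None of 7 mesothelial, 5 B cell and 1 red blood cell markers passed in limma, with 1 B cell marker at an unadjusted p under 0.05, and their median differences were -0.030, -0.0086 and -0.098. In whole tissue more cells of a type and more RNA per cell cannot be told apart, and the part of cell makeup in the ribosomal protein values was not tested. As a check of the tissue label, the 10 adipocyte markers measured had median levels over all arrays between 6.80 for Slc2a4, an insulin-responsive glucose transporter, and 12.2 for Fabp4, a fatty acid carrier. Since brightness depends on the probe, this says only that none of the 10 was at the dim end of the scale. Array medians lay between 4.23 and 4.39. The SD over probes was 1.977, 1.988 and 2.001 on the HFD arrays and between 1.82 and 1.94 on ND arrays, with the lowest on ND 9.

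**Figure D2:**
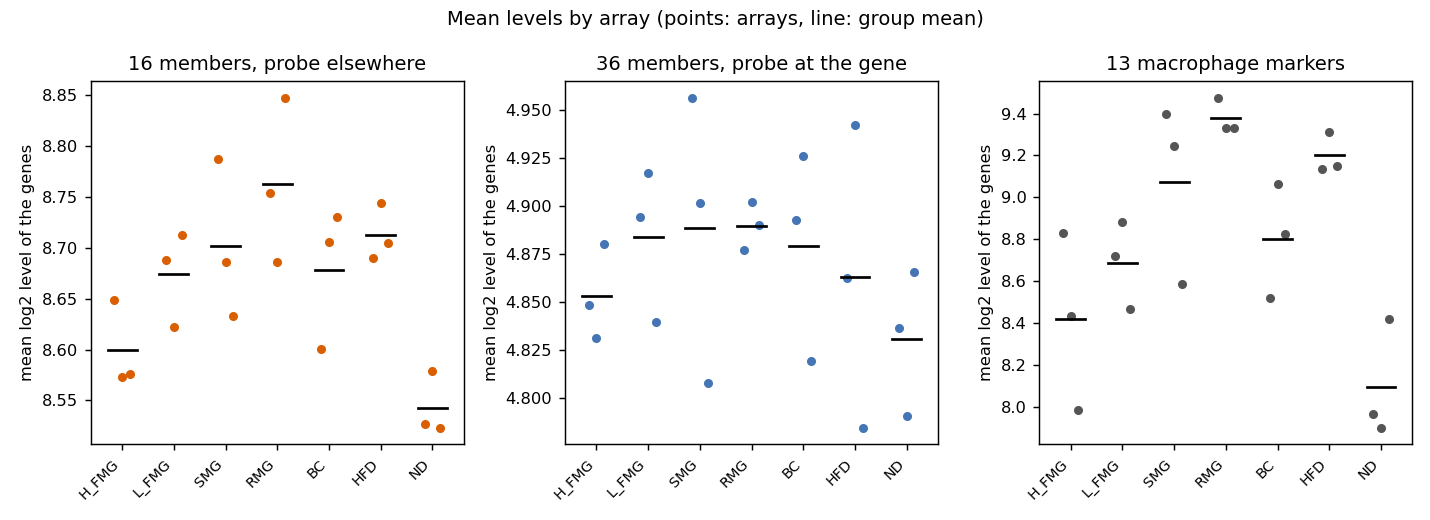
Mean log2 level on each array (points) and group mean (lines), for the 16 members with the probe elsewhere in the genome, the 36 members with the probe at the gene, and 13 macrophage markers, in all 7 groups; each panel has its own axis. Arrays of HFD lie above those of ND in the left and right panels and overlap with them in the middle panel, and the left panel spans far less than the macrophage markers, whose group means are 9.20 in HFD and 8.10 in ND.

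Genes that make or use ribosomes were read beside the proteins themselves, from lists chosen with earlier results of these data known. Of 30 translation factors 3 rose in HFD against ND: Eif5a, which eases peptide bond formation at prolines, by 0.47 ± 0.09, Eef1b2, which recharges the elongation factor that delivers aminoacyl-tRNA, by 0.36 ± 0.11, and Eef1e1, of the multi-synthetase complex, by 0.63 ± 0.12. Their median was 0.16. Of 44 ribosome biogenesis factors 6 rose and 0 fell, among them Noc2l by 0.48 ± 0.11, Tcof1, which supports ribosomal RNA transcription, by 0.52 ± 0.13, the nucleolar GTPase Gnl3 by 0.52 ± 0.14 and Utp15 of the small-subunit processome by 0.48 ± 0.14. Their median was 0.20.

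None of 16 genes of RNA polymerase I passed, with 4 at an unadjusted p under 0.05 in limma. Of 24 genes of mTOR, S6 kinase and Myc control 3 rose: Sesn1, which restrains mTOR complex 1 when leucine is low, by 0.79 ± 0.18, Deptor, an mTOR-binding inhibitor, by 0.40 ± 0.11, and Tsc1, of the complex that switches Rheb off, by 0.38 ± 0.12. All 3 are known as brakes on the pathway, but the list was not sorted into brakes and activators. At an unadjusted p under 0.05 in limma 8 of the 24 were higher and 1 was lower, where 25.3% of all genes lay under that p. Of 14 further TOP messenger RNAs Eef1b2 alone rose. Of 55 mitochondrial ribosomal proteins, which build a separate ribosome, Mrpl40 fell by 0.48 ± 0.12 and 0 rose, with a median of 0.068. Against the 8.63% of all genes called, the shares called were near or below it in the translation factor, TOP and mitochondrial lists and somewhat above it in the biogenesis (6 of 44) and mTOR (3 of 24) lists, with no test of a list made. In the 8 other comparisons 0 genes of these lists passed.

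Over all 7 groups the moderated F test in limma called 2 members, Rpl6 (adjusted p = 0.0251) and Rpl6l (adjusted p = 0.0328), where 6.47% of all genes were called. Rpl10a stood next (limma adjusted p = 0.0511). Over the 6 groups on the high-fat diet 0 members were called, with 4 members at an unadjusted p under 0.05 in limma, where 0.0492% of all genes were called and 12.2% lay under that p.

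Rpl6 averaged 3.89 ± 0.11 in L_FMG, 3.75 ± 0.034 in H_FMG, 3.90 ± 0.12 in SMG, 4.15 ± 0.16 in BC, 4.20 ± 0.041 in RMG, 4.02 ± 0.15 in HFD and 3.64 ± 0.13 in ND (SD, n = 3 each). Its order thus ran from RMG at the top to H_FMG and ND at the bottom, and the 3 H_FMG arrays, at 3.78, 3.72 and 3.75, lay wholly below those of HFD. Rpl6l averaged 8.17 ± 0.041 in L_FMG, 8.04 ± 0.12 in H_FMG, 8.32 ± 0.15 in SMG, 8.20 ± 0.19 in BC, 8.39 ± 0.15 in RMG, 8.46 ± 0.058 in HFD and 7.96 ± 0.17 in ND. Here HFD was highest and ND lowest, and the neighbours RMG and HFD, like H_FMG and ND, overlapped.

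**Figure D3:**
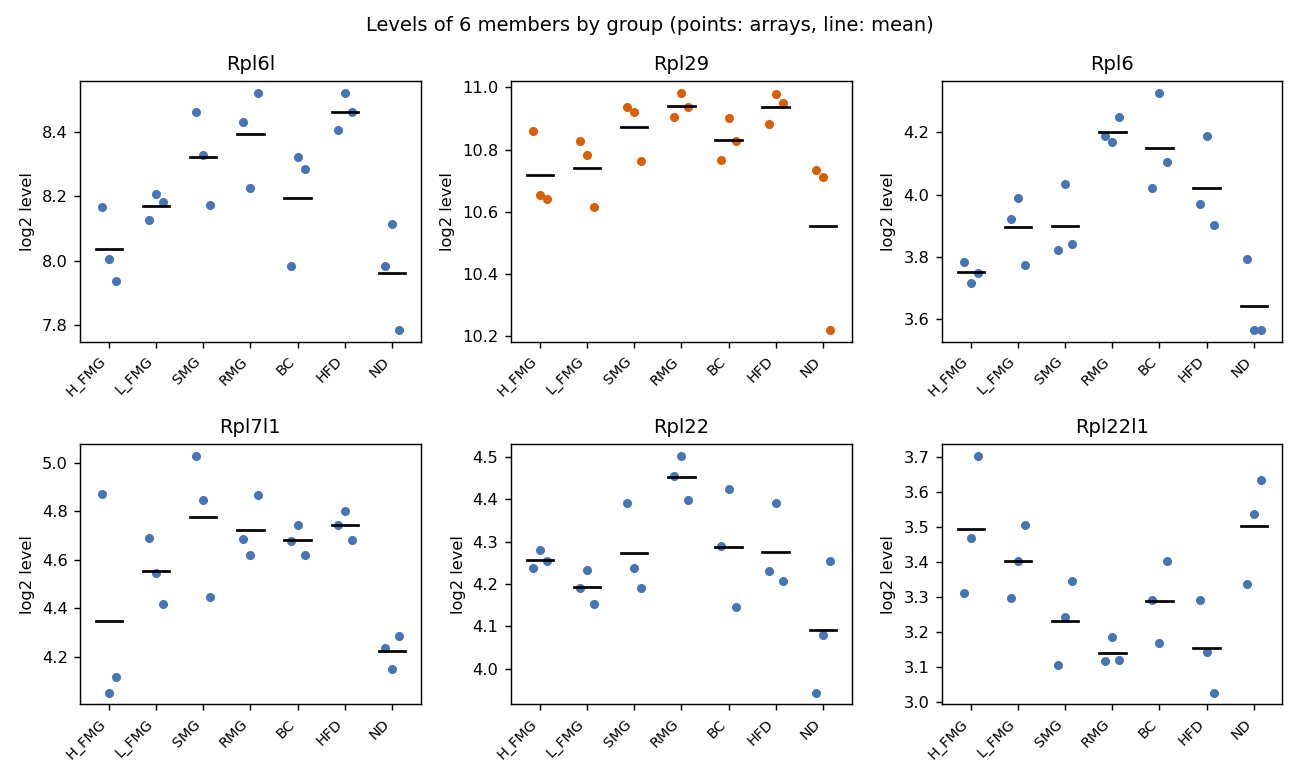
Log2 level on each array (points) and group mean (lines) of Rpl6l, Rpl29, Rpl6, Rpl7l1, Rpl22 and Rpl22l1 in all 7 groups, each panel with its own axis; orange marks a probe elsewhere in the genome. Rpl6l is highest in HFD and lowest in ND, Rpl29 in ND is spread by 1 array at 10.22, Rpl7l1 in H_FMG by 1 array at 4.87, and Rpl22l1 lies higher in H_FMG and ND than in HFD.

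The comparisons of each supplement with HFD ask whether the supplement altered the fat under the same diet. For H_FMG, the higher dose of fermented grain, 0 members passed in limma, where 0.00615% of all genes, a single gene, did. At an unadjusted p under 0.05 there were 1 member higher and 5 lower, against 14.5% of genes. Rpl6l had levels of 8.17, 8.01 and 7.94 in H_FMG, against 8.41, 8.52 and 8.46 in HFD. The H_FMG arrays lay wholly below, with a difference of -0.43 ± 0.11 (limma adjusted p = 0.130). With arrays weighted by quality the adjusted p was 0.0230, and without H_FMG 3 it was 0.0488.

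Rpl22l1 had 3.31, 3.47 and 3.70 in H_FMG, against 3.29, 3.14 and 3.03 in HFD, wholly higher (difference 0.34 ± 0.13, limma adjusted p = 0.222), while Rpl22 differed by -0.02 ± 0.11. Rpl7l1 had 4.87, 4.05 and 4.12 in H_FMG, against 4.74, 4.80 and 4.68 in HFD, so that H_FMG 3 lay apart from the other H_FMG arrays. Its difference was -0.40 ± 0.17 (limma adjusted p = 0.294), and without H_FMG 3 it was -0.66 with an adjusted p of 0.0354. Rpl6 differed by -0.27 ± 0.12, Rpl9 by -0.43 ± 0.16 and Rpl23a by -0.18 ± 0.08, with limma adjusted p of 0.300, 0.237 and 0.325. Rps15 had the largest positive difference, 0.42 ± 0.33, and its groups overlapped.

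These members had differences of opposite sign in HFD against ND, but both comparisons hold the same HFD arrays, so an opposite sign is not separate evidence. Over all 52 the median in H_FMG against HFD was -0.037, against 0.017 over all genes, with 20 of 52 positive, where 53.6% of all genes were. The H_FMG arrays lay wholly above the HFD arrays for 2 members (10.7% of all genes did) and wholly below for 9 (11.4% of all genes did). Members above a level of 8 had a median of -0.11 with 1 of 15 positive, where the genes at that level had -0.068 with 36.1% positive. The mean level of the macrophage markers ran from 7.99 to 8.83 in H_FMG and from 9.13 to 9.31 in HFD, and its part in these values was not tested.

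For L_FMG, the lower dose, 0 members passed against HFD in limma (0% of all genes), with 2 at an unadjusted p under 0.05, both lower, against 8.66% of genes. Rpl6l had 8.13, 8.21 and 8.18 in L_FMG, against 8.41, 8.52 and 8.46 in HFD (difference -0.29 ± 0.11, limma adjusted p = 0.518), with tight groups that did not overlap. Rpl10a had 8.15, 8.15 and 8.01 in L_FMG, against 8.34, 8.44 and 8.31 in HFD (difference -0.26 ± 0.12, limma adjusted p = 0.558). Rpl38, a large-subunit gene that in mice is needed for the translation of some Hox messenger RNAs, had the largest positive difference, 0.40 ± 0.25, but its L_FMG arrays read 9.84, 9.80 and 8.88, against 9.04, 9.23 and 9.06 in HFD. The L_FMG arrays thus split on both sides of HFD, and a like split of Rpl38 arrays appears in BC, at 8.93, 9.80 and 9.06, and in ND, at 9.70, 9.61 and 8.84.

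For BC 0 members passed against HFD (0% of all genes) and 1, Rpl6l, had an unadjusted p under 0.05 in limma, against 5.18% of genes. Its levels were 7.98, 8.32 and 8.28 in BC, against 8.41, 8.52 and 8.46 in HFD (difference -0.27 ± 0.11, limma adjusted p = 0.917). Rps15 had the largest positive difference, 0.60 ± 0.33, with a level of 3.19 ± 0.22 in BC against 2.59 ± 0.30 in HFD (SD, n = 3 each), and Rpl9 the largest negative one, -0.27 ± 0.16.

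For SMG 0 members passed against HFD (0% of all genes), and 1 had an unadjusted p under 0.05 in limma, against 1.85% of genes. This was Rpl37a, a zinc-finger protein of the large subunit, with 4.85, 4.89 and 4.67 in SMG, against 4.53, 4.49 and 4.17 in HFD (difference 0.41 ± 0.15, limma adjusted p = 1.00). Rpl32l had the largest negative difference, -0.22 ± 0.16, at levels near the bottom of the scale. For RMG 0 members passed (0% of all genes) and 0 had an unadjusted p under 0.05 in limma, against 2.82% of genes. Rpl37a had the largest positive difference, 0.28 ± 0.15, and Rpl7 the largest negative one, -0.27 ± 0.16. Rpl22 read 4.46, 4.50 and 4.40 in RMG, against 4.23, 4.39 and 4.21 in HFD, wholly higher by a small amount.

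The medians over members against HFD were 0.019 for L_FMG, 0.011 for SMG, -0.020 for BC and 0.051 for RMG, and those over all genes were 0.0047, 0.0048, 0.0082 and 0.013.

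**Figure D4:**
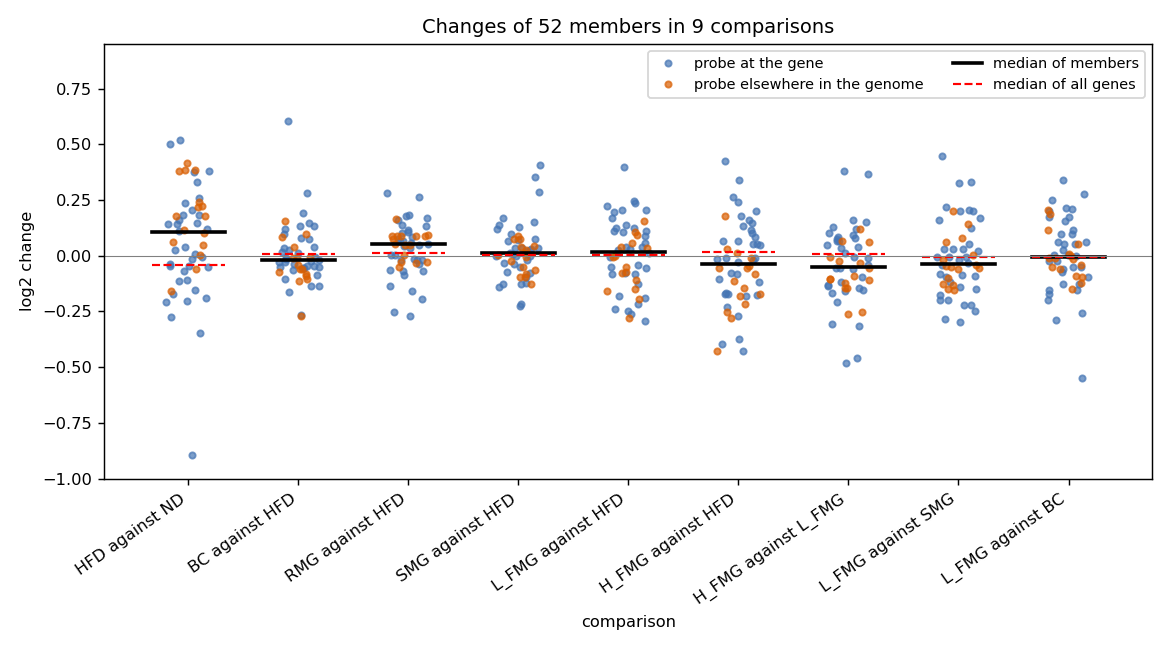
Fitted log2 difference of each of the 52 members (points, orange where the probe lies elsewhere in the genome) in the 9 comparisons, with the median of the members (black line) and of all genes (dashed red line); the horizontal spread of points within a column carries no value. The member median is 0.11 in HFD against ND and between -0.049 and 0.051 in the other 8, and single members rarely exceed 0.50 in either direction.

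Comparisons among supplemented groups ask about dose (H_FMG against L_FMG), fermentation (L_FMG against SMG) and the bacterium alone (L_FMG against BC) at like weights. In each 0 members passed in limma, and 0% of all genes did. Between the doses 2 members had an unadjusted p under 0.05, against 3.91% of genes. Rps24, a small-subunit gene mutated in some human Diamond-Blackfan anaemia, had 4.74, 4.59 and 4.90 in H_FMG, against 4.37, 4.45 and 4.27 in L_FMG, without overlap (difference 0.38 ± 0.13, limma adjusted p = 0.998). The other was Rpl7a at -0.31 ± 0.15, and Rpl38 had the largest negative difference, -0.48 ± 0.25.

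Between L_FMG and SMG 3 members had an unadjusted p under 0.05 in limma, against 5.45% of genes: Rpl10a at -0.29 ± 0.12, Rps10 at -0.25 ± 0.10 and Rps27 at 0.33 ± 0.14. Rpl38 at 0.45 ± 0.25 and Rps15 at -0.30 ± 0.33 had the largest differences, and both had overlapping groups. Between L_FMG and BC 3 members did, against 4.10% of genes: Rpl11 at 0.34 ± 0.16, Rps24 at -0.29 ± 0.13 and Rpl6 at -0.26 ± 0.12. Rps15 had the largest difference, -0.55 ± 0.33. These counts lie near or little above the share of all genes under that p, and no member call rests on them.

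The median correlation between members from array to array was low. After the group means were removed, the median correlation between pairs of members over the 21 arrays was 0.068, as a description over arrays that share their scaling. It was 0.053 among members read at the gene and 0.21 among those read elsewhere.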

How the data were processed

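The deposited values were log2 levels, 1 per probe and array, from GeneChip whole-transcript arrays of biotin-labelled cDNA made from Trizol-extracted total RNA, per the labels' protocols. The sources used here do not give how the authors summarised and normalized them. The log base, also not given, was taken from the range of 0.84 to 12.7. The values were used as deposited. Of 24291 probes with all 21 values, 17067 had 1 symbol, 1139 several and 6085 none in the platform annotation. Only probes with 1 symbol were used for genes, and the brightest stood for a gene (16248 genes). The 33 probes with several symbols that include a member-type symbol entered no gene test. No pair of arrays held the same values, and no scan date or batch is given in the sources used here. The precision is limited by the number of arrays, 3 in each group.

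A model with a mean for each of the 7 groups was fitted to all 21 arrays, gene by gene, in limma 3.58.1 (R 4.3.3), with an intensity trend in the moderated variances. Two-sided p-values were adjusted after Benjamini and Hochberg over all genes within each comparison, with a threshold of 0.05. Errors of changes are standard errors of the fit, and those of levels are SDs. A probe was called at its gene where the commonest chromosome among the genes of the 8 probes on each side was the gene's own and the median start of those on it lay within 5 megabases of the gene's, on RefSeq's gene table of build GRCm38.p6. Windows at gene starts came from RefSeq on the same build.

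The members, the gene lists, the naming rule and the alternatives were chosen with earlier results of these data known. The rule names, in each comparison, members past the threshold and the largest rise and fall, the 5 members with the smallest p in the F test over 7 groups, and a panel of 23 genes of which 14 were measured, 26 genes in all, and up to 4 called genes of each other list. Other members named in the text, the split by probe place and the classes of level were chosen after their values were seen. Alternatives were quantile normalization, centring on array medians, leaving out dim genes, the mean of a gene's probes, array weights, a fit of the 2 groups alone, a replicate block and leaving out each array. The main fit did not treat the numbers in the titles as pairing mice across groups. Arrays with the same number in different groups had correlations of their deviations from the group means between -0.30 and 0.18 (18 pairs). Arrays with different numbers had -0.35 to 0.40 (171 pairs). Such correlations cannot settle what the numbers stand for.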

Additional observations from a re-analysis of the deposited data

Results flagged for a closer look

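Probes with several symbols, a member-type symbol among them, were outside the gene test. Of 33 such probes 2 passed in HFD against ND in a limma fit over all 24291 probes, a share near the 6.16% of all probes that passed. Both carry the symbols Rpl12 and Gm11425, so neither names a gene. Probe 17402604 read 9.45, 9.66 and 9.50 in HFD, against 8.82, 9.05 and 8.69 in ND, and rose by 0.68 (limma adjusted p = 0.00852). Probe 17240020 read 9.67, 9.79 and 9.62 in HFD, against 9.32, 9.33 and 9.33 in ND, and rose by 0.36 (limma adjusted p = 0.0438). Another probe with both symbols, 17370024, differed by 0.08 (limma adjusted p = 0.757).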

How the results depend on the processing

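In HFD against ND the 2 called members became 4 after quantile normalization, 8 with arrays centred on their median, 5 with dim genes left out (29 members kept) and 8 with array weights, all higher in HFD. The share of all genes called moved too, to 7.04%, 10.8%, 18.7% and 14.97% under these settings, against 8.63%. Leaving out 1 array gave from 0 to 3, and without HFD 4 or HFD 7 only Rpl6l remained. The member median was 0.21 with centred arrays and 0.15 without dim genes, and from 0.064 (without HFD 6) to 0.12 with 1 array left out. It was 0.019 for members with the probe at the gene and 0.18 for those with it elsewhere, a split added after seeing the data. In H_FMG against HFD the count of 0 became 1 with array weights and, with 1 array left out, ranged from 0 to 2. The median was -0.097 with centred arrays, -0.083 without dim genes and -0.098 for probes elsewhere. With 1 array left out it ranged from -0.076 to -0.013. In L_FMG against HFD the median was -0.031 with centred arrays, -0.050 without dim genes, -0.029 for probes elsewhere and between -0.024 and 0.022 with 1 array left out. It was -0.075 in BC against HFD with centred arrays and -0.097 in H_FMG against L_FMG for probes elsewhere. The F test over 7 groups called 1 member after quantile normalization, 8 with array weights and from 0 to 4 with 1 array left out, with 0 without RMG 4 or RMG 10 and 4 without H_FMG 3. The F test over the 6 high-fat groups called 2 with array weights. The cause of these shifts was not tested. With the title number as a replicate block, a random effect, the call count stayed at 2 and the median was 0.097 in HFD against ND. The consensus correlation was -0.088, and no other call changed. Of 821 values of named genes under the alternatives, 796 kept their side of the threshold and 0 changed from called in one direction to the other.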
